A study of Mus musculus with 9 samples.

Results

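The aortas of mice infused with angiotensin II (Ang II) were compared with sham aortas, taking both infusion times as a single arm. All 9 libraries of the series entered the comparison. Each came from the suprarenal abdominal aorta of a mouse with the genotype ApoE knock out, so the sham arm carried the same deletion. The 6 Ang II libraries came from mice given Ang II by osmotic pump at 1000 ng/kg/min, 3 after 14 days and 3 after 28 days. The 3 libraries titled sham control came from mice that, per the design text, received saline, and the labels do not give their day. Age and sex are not given in the labels used here. The design text defines an aneurysm by aortic diameter but gives no diameter for a sample, so the arm is defined by infusion and not by an aneurysm. No other drug is named for these samples. Nothing in the labels says that the 3 libraries of a group came from separate animals, and the spread between them may in part be technical. Of 14741 genes tested, 1263 had all 6 Ang II libraries above all 3 sham libraries, and 585 had all 6 below. These genes are called separated here.

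Ang II is the effector peptide of the renin-angiotensin system. It constricts vessels through the receptor AT1a, encoded by Agtr1a, and chronic infusion into mice that lack apolipoprotein E is a standard way to induce abdominal aortic aneurysm. The normal wall is built of contractile smooth muscle cells between elastic lamellae, with endothelium inside and adventitial fibroblasts, nerves and fat outside. In the induced disease, leukocytes enter the wall, elastin breaks and collagen is laid down.

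The separated genes were 8.57% of the tested genes on the higher side and 3.97% on the lower side. The higher genes differed by more: their median fold was 3.45, and 945 of 1263 differed at least 2-fold. The lower genes had a median fold of 1.47, sham over Ang II, and 140 of 585 differed at least 2-fold. With a gap of at least 2-fold between the closest libraries of the arms, 162 genes were higher and 3 were lower. Scaling by library totals alone, without the trimmed mean of M values (TMM), gave 1530 higher and 328 lower genes, so the higher side held 82.4% of the separated genes in place of 68.3%. Separation is a description of these 9 libraries. In edgeR's quasi-likelihood test across all genes, 0 genes passed a Benjamini-Hochberg adjusted p of 0.05 (0% in each direction), and the lowest adjusted p was 0.0781. Without adjustment, 1721 higher (11.7%) and 1194 lower genes (8.1%) had a p under 0.05. DESeq2 called 1170 higher (7.94%) and 460 lower genes (3.12%) at the same adjusted threshold, and limma-voom called 0. The adjusted p-values beside genes below are edgeR's, and they come from the same contrast that chose the genes.

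Total expected counts ran from 9609690 to 14923936 per library. The reads assigned to Apoe do not check the genotype, since no library without the deletion is at hand and the labels do not say which part of the gene was removed. Apoe had 22.5, 87.5 and 70.3 CPM (counts scaled to a common library total with TMM factors) in the sham libraries and 22.99 to 648 CPM, median 167, under Ang II, with overlapping arms (edgeR adjusted p = 0.261). The titles call the samples muscle and the source field aorta. Contractile smooth muscle genes were abundant, at a mean log2 CPM of 8.63 to 10.10 in the sham and 7.12 to 9.34 in the Ang II libraries. Skeletal muscle genes had a mean log2 CPM of -0.62 to 1.03 in the sham and 14-day libraries but 9.82, 8.37 and 2.86 at 28 days. The source of these transcripts was not tested. The nerve, ganglion and Schwann cell list stood at 8.49 in sham replicate 2, 7.41 in 14-day replicate 1 and 7.38 in 28-day replicate 2, against 1.26 to 6.53 elsewhere. Cardiac genes stood at 6.94 in sham replicate 1 and at most 2.77 in the others. Counts under left-out libraries are given below beside the share of all genes under the same setting, since fewer libraries make separation easier. Where a left-out library held the level of a list nearest the other arm, leaving it out moves the arms apart by itself. The share of all genes does not correct for this.

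**Figure D1:**
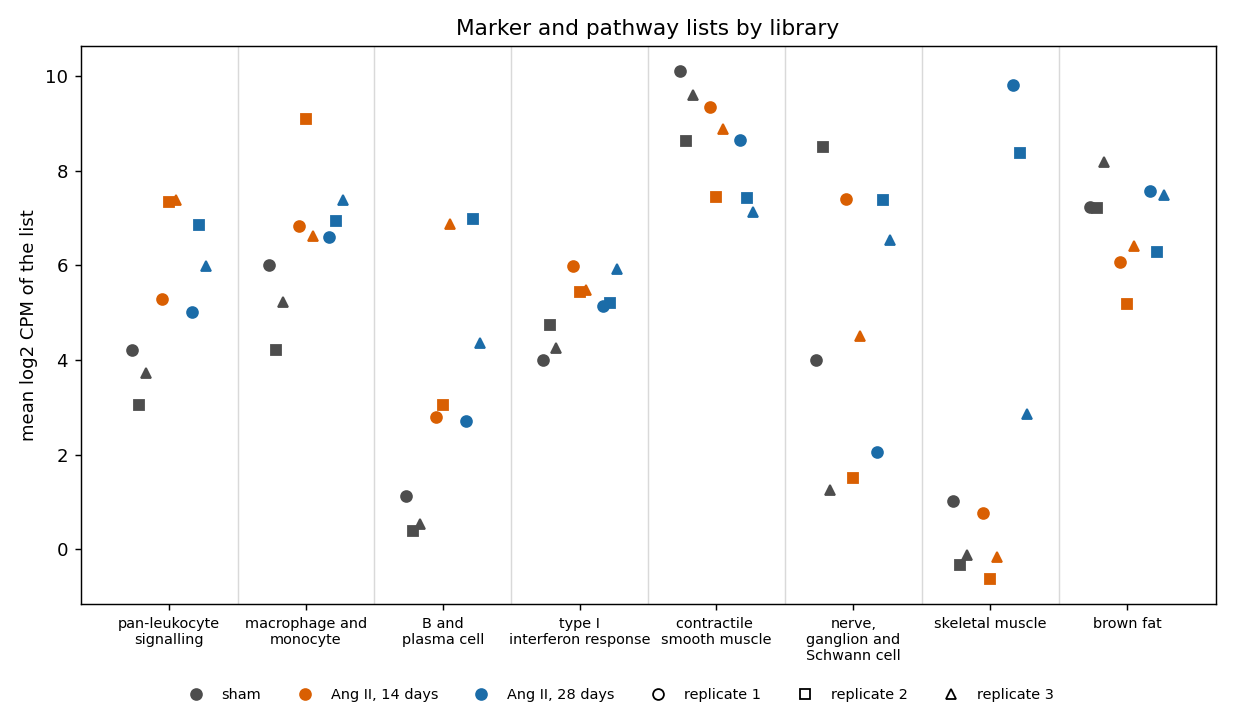
Mean log2 CPM of the members of 8 gene lists (y axis) in each of the 9 libraries, grouped by list along the x axis. Grey is sham, orange 14 days and blue 28 days, and the symbol gives the replicate. Pan-leukocyte, macrophage, B cell and interferon lists lay higher in all 6 Ang II libraries, while smooth muscle, nerve, skeletal muscle and brown fat lists overlapped between the arms.

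Of the 8 genes with the smallest p, 4 are known to be induced by interferons (Trim30a, Ifi205, Ifi47 and Parp14), and the others were Plac8, Fbxo30, Napepld and Myh10. Trim30a, an interferon-induced member of the tripartite motif family, had 14.2, 12.6 and 16.2 CPM in the sham libraries and 35.5 to 62.5 CPM, median 47.1, under Ang II. The lowest Ang II library was 2.19 times the highest sham library. The log2 fold change was 1.75 ± 0.20 (SE, 6 against 3 libraries, edgeR adjusted p = 0.0781). Ifi47, an interferon-gamma-induced GTPase, had 9.91, 13.3 and 11.9 CPM in sham and 25.4 to 55.1 CPM, median 42.8, under Ang II, a log2 fold change of 1.83 ± 0.24 at the same adjusted p. Ifi205, one of the Ifi200 family of nucleic acid-binding proteins, had 5.54, 6.22 and 7.30 CPM against 14.98 to 24.9 CPM, median 19.2. Its log2 fold change was 1.65 ± 0.21 (edgeR adjusted p = 0.0781), and the same value of 1.65 was found at 14 and at 28 days. Oas1a, which makes the second messenger that activates RNase L, had 6.71, 5.86 and 8.28 CPM against 19.7 to 52.2 CPM, median 33.7. Plac8, a small cysteine-rich protein, had 5.33, 5.51 and 9.70 CPM against 26.2 to 57.2 CPM, median 40.7. In each of these 5 genes the lowest Ang II library was well above the highest sham library.

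Of the promoters of the genes higher in all 6 libraries, those with the smallest p that hold an interferon-stimulated response element (ISRE, searched on both strands as 2 copies of GAAA with any 2 bases between) are shown, because interferon-response genes were among those with the smallest p. Each is the 150 bases before the RefSeq start site of the GRCm38.p6 table, 5′ to 3′ on the strand of the gene, with the matched letters in capitals. The stretches are chr7:104465194-104465343 for Trim30a, chr1:174031756-174031905 for Ifi205, chr5:120907526-120907675 for Oas1a, chr11:83020723-83020872 for Slfn8 and chr14:59341331-59341480 for Phf11b, all on the minus strand.
Trim30a: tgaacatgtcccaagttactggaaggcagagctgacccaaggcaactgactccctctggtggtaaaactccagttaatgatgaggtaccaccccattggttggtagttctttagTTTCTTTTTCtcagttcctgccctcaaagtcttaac
Ifi205: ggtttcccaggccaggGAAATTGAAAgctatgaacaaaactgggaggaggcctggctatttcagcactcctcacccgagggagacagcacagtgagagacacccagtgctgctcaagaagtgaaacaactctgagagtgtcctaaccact
Oas1a: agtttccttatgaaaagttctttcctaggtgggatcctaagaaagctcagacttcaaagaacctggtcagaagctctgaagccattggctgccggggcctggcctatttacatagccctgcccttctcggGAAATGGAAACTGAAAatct
Slfn8: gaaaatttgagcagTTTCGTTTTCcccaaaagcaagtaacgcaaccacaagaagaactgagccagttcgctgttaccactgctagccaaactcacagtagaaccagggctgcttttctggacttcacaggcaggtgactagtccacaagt
Phf11b: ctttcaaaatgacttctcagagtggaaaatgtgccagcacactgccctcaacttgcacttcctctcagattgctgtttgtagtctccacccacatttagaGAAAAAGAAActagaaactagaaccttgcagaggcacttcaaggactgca
In Oas1a 2 matches overlapped, and the nearer began 14 bases before the start site. The match of Trim30a began 36 and that of Phf11b 50 bases before it, while those of Ifi205 and Slfn8 lay 134 and 136 bases before it. Over all tested genes, 3.19% of 14909 promoter windows of 300 bases (250 before and 50 after the start) held the motif. The share was 8.46% of 1206 windows of the higher genes and 2.25% of 623 windows of the lower genes. Of the 19 windows found for the type I interferon list, 11 held it. A match is a run of letters and not a binding site.

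The type I interferon response list had 23 tested members of 25. In 15 all 6 Ang II libraries lay above sham, in 0 below, and the median log2 fold change was 1.10, against -0.07 over all genes tested. Parp14, a mono-ADP-ribosyltransferase, had 30.5, 38.8 and 29.7 CPM in sham and 58.3 to 73.0 CPM, median 65.9, under Ang II, with the highest Ang II library close to the lowest. Its log2 fold change was 0.99 ± 0.13 (edgeR adjusted p = 0.0781). Irf9, the DNA-binding subunit of the factor that interferons activate, had 27.1, 31.1 and 29.99 CPM against 48.4 to 70.1 CPM, median 56.6, a log2 fold change of 0.95 ± 0.15. Irf7, an interferon regulatory factor that is itself induced, had 16.2, 27.0 and 22.3 CPM against 41.8 to 142 CPM, median 105. Rnf213, a large ubiquitin ligase, had 40.8, 47.5 and 46.6 CPM against 74.4 to 118 CPM. Uba7, the activating enzyme for the ubiquitin-like protein ISG15, had 21.5, 26.8 and 20.1 CPM against 43.4 to 66.2 CPM. With sham replicate 2 left out, 21 of the 23 list members were higher, against 12.7% of all genes. That library held the highest sham level of the list (4.73), so leaving it out moves the arms apart by itself. Without 14-day replicate 2, 16 were higher, against 9.88% of all genes. Among the interferon-gamma GTPases, 4 of 14 were separated, all higher, with a median log2 fold change of 0.88. Without 14-day replicate 2, 12 of 14 were higher, against 9.88% of all genes. That library held the lowest Ang II level of the list (4.55), under the highest sham level (4.64). Leaving it out moves the arms apart by itself. With library totals alone 3 of 14 were higher, against 10.4% of all genes. Without the nerve-rich libraries 6 of 14 were, against 14.3%. Irgm1, which acts on vacuoles that hold pathogens, had 24.3, 29.3 and 26.6 CPM against 40.3 to 71.1 CPM, median 54.0.

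**Figure D2:**
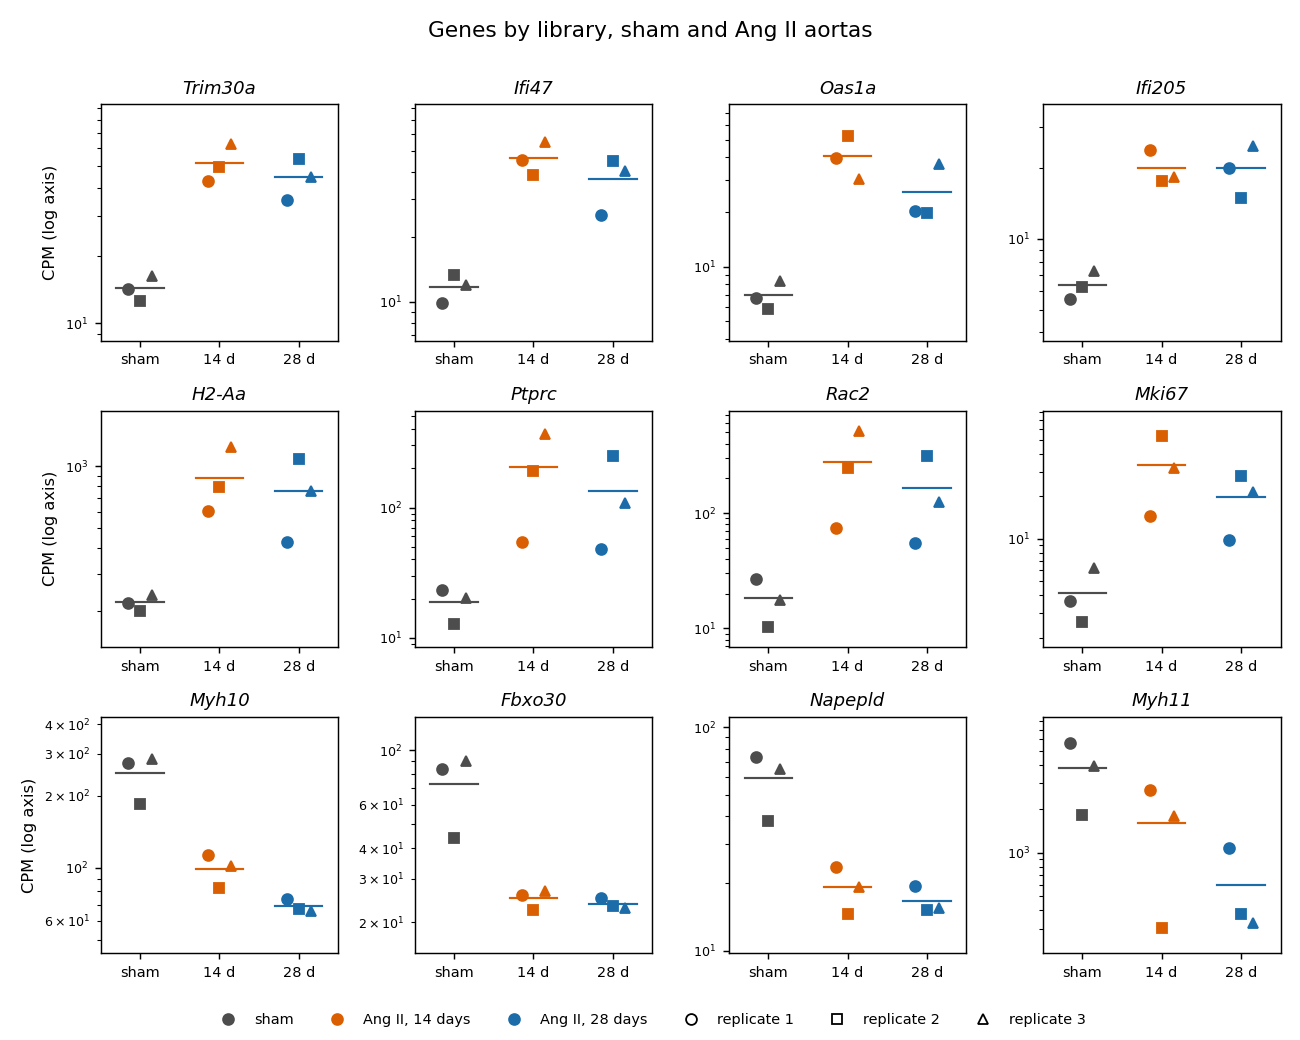
CPM of 12 genes (y axis, logarithmic) in the sham, 14-day and 28-day libraries (x axis). Each point is a library, its symbol the replicate, and each line the group mean. Trim30a in the 6 Ang II libraries lay between 35.5 and 62.5 CPM, above the sham maximum of 16.2, whereas Myh11 in 14-day replicate 1 reached 2679 CPM, inside the sham range of 1810 to 5692.

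Antigen presentation separated nearly throughout. In the MHC class II list, which covers the molecules that show peptides to CD4 T cells, 10 of 10 tested members were higher in all 6 libraries, with a median log2 fold change of 2.03. H2-Aa, the class II alpha chain, had 218, 200 and 239 CPM in sham and 428 to 1237 CPM, median 776, under Ang II. Its log2 fold change was 1.90 ± 0.35 (edgeR adjusted p = 0.115). Cd74, the invariant chain that escorts class II molecules, had 412, 355 and 488 CPM against 813 to 2997 CPM. Ciita, the transcriptional activator of class II genes, had 5.75, 5.58 and 7.92 CPM against 14.4 to 89.0 CPM. In the class I and immunoproteasome list, 17 of 19 were higher in all 6, with a median log2 fold change of 1.14. Psmb8, a catalytic subunit of the immunoproteasome, had 39.9, 47.3 and 38.4 CPM against 63.9 to 170 CPM. H2-K1, a class I heavy chain, had 685, 613 and 571 CPM against 965 to 1949 CPM. B2m, the light chain of class I, had 1548, 1444 and 1260 CPM against 2038 to 3384 CPM, a log2 fold change of 0.87 ± 0.25. Class I genes are near-identical to each other, and reads shared among them make the value of a single H2 gene uncertain.

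Some of the higher genes lay side by side in the genome. Placing the 14708 tested genes with a position in order, 19.6% of the higher genes were followed by another higher gene, against 8.57% of all genes on that side. For the lower genes the share was 6.50%, against 3.97% of all genes on that side. There were 17 runs of at least 4 neighbouring higher genes, holding 99 genes, and 0 such runs of lower genes. The longest held 12 genes of the MHC (chr17:34119693-34341410, GRCm38.p6), from H2-DMa to H2-Eb2, and included Psmb9, Tap1, Psmb8 and Tap2. Their log2 fold changes ran from 0.76 to 6.31. Tap2, a subunit of the peptide transporter, was the smallest, with 60.2, 61.7 and 59.4 CPM in sham and 77.7 to 140 CPM under Ang II. H2-Eb2 was the largest, with 0.21, 0 and 0.27 CPM in sham and 0.77 to 34.0 CPM under Ang II. The next run was of 11 genes on chromosome 1 (chr1:173349547-174031755), from Aim2, a sensor of cytosolic DNA, through the Ifi200 family to Ifi205. A run of 10 genes on chromosome 6 (chr6:48647186-48845948) held 8 Gimap genes, GTPases of lymphocytes, and Tmem176b and Tmem176a. Tmem176b had 82.8, 94.2 and 66.0 CPM against 182 to 319 CPM, a log2 fold change of 1.49 ± 0.22. A run of 7 Slfn genes on chromosome 11 (chr11:82951349-83215154) included Slfn2, which restrains activation of T cells and monocytes, at 14.6, 12.6 and 14.1 CPM against 41.4 to 162 CPM. Aif1, Lst1, Ltb, Tnf and Lta made a run of 5 in the MHC class III region. Members of the Ifi200, Gimap, Slfn and Ms4a families resemble each other in sequence, so reads may be divided among them.

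**Figure D3:**
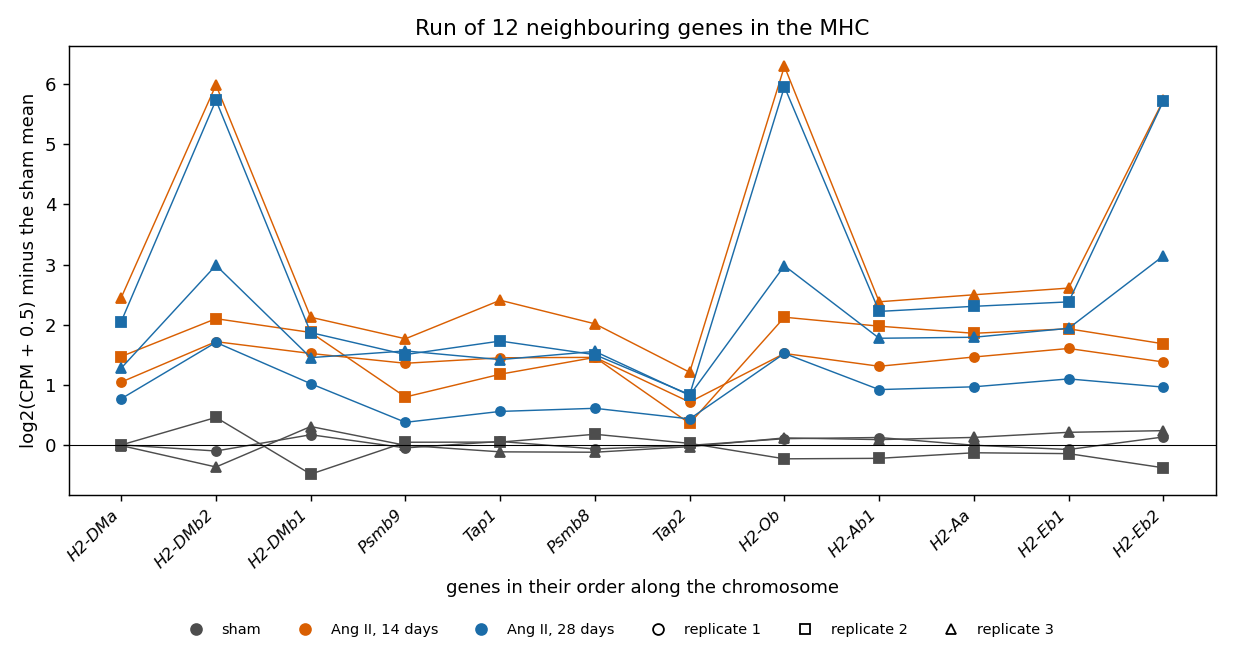
The 12 neighbouring MHC genes in chromosome order (x axis) with log2(CPM + 0.5) of each library minus the mean of the 3 sham libraries (y axis). All 6 Ang II lines lie above the 3 sham lines at each gene. The lines of 14-day replicate 3 and 28-day replicate 2 lie far above the rest at H2-DMb2, H2-Ob and H2-Eb2.

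Leukocyte genes of many kinds were higher in all 6 libraries. Of 21 tested pan-leukocyte signalling genes, 20 were separated, all higher, with a median log2 fold change of 2.84. Ptprc, the leukocyte surface phosphatase CD45, had 23.4, 12.8 and 20.3 CPM in sham and 48.1 to 368 CPM, median 149, under Ang II, a 9.003-fold difference. Rac2, a GTPase of blood cells, had 27.0, 10.4 and 17.6 CPM against 54.6 to 513 CPM, median 185. The Ang II libraries spread more widely than the sham libraries in both genes. Was, the actin regulator lost in Wiskott-Aldrich syndrome, had 3.20, 2.15 and 4.00 CPM against 9.74 to 48.7 CPM. In a bulk sample, fewer cells of a type and less RNA per cell cannot be told apart, and the same is true of more cells and more RNA.

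Of 24 macrophage and monocyte genes, 18 were higher in all 6, with a median log2 fold change of 2.31. Cd68, a lysosomal glycoprotein of macrophages, had 150, 11.7 and 42.4 CPM in sham and 159 to 1479 CPM, median 197. Its arms nearly met, and 14-day replicate 2 was far above the others. Aif1, which bundles actin in activated macrophages, had 7.03, 4.51 and 4.63 CPM against 10.9 to 51.7 CPM. Ccr2, the receptor that draws monocytes out of marrow, had 8.52, 11.2 and 18.6 CPM against 19.8 to 50.1 CPM. Marco, a scavenger receptor of macrophages, had the widest gap of all separated genes with a mean of at least 10 CPM. It stood at 0.21, 0.14 and 0.09 CPM in sham, which is at or under the CPM of 3 counts in each library, and 2.96 to 358 CPM under Ang II. Siglec1, the sialic acid receptor CD169, had 10.5, 11.5 and 14.2 CPM against 28.3 to 180 CPM. In the neutrophil list 7 of 8 tested members, of 12 written, were higher in all 6, against 8.57% of all genes. The neutrophil genes Ly6g, Retnlg, Camp and Ngp did not pass the filter, with at most 1.29 CPM in any library. S100a8, which was tested, had 0.21, 0.29 and 0.80 CPM in sham and 0.84 to 4.03 CPM under Ang II. Mmp9 and Il1b are also in other lists.

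The lymphocyte genes described here spread widely between Ang II libraries, and fold changes of genes near 0 CPM depend on the prior count of the fit. Of 12 B and plasma cell genes, 10 were separated, all higher, with a median log2 fold change of 5.68, and of 15 T cell and cytotoxic genes 12 were, with a median of 4.21. Cd79a, a chain of the B cell receptor, had 2.24, 1.00 and 1.51 CPM in sham and 11.2 to 509 CPM, median 28.2, under Ang II. Jchain, which links IgA and IgM units, had 10.02, 4.51 and 3.47 CPM against 19.6 to 372 CPM. Cd3g, a chain of the T cell receptor complex, had 1.70, 1.07 and 1.25 CPM against 4.71 to 93.8 CPM. Klrc1, a receptor of natural killer cells, had 0.21, 0.29 and 0.18 CPM against 0.88 to 4.82 CPM. The level of the B cell list was 6.87 in 14-day replicate 3 and 6.97 in 28-day replicate 2, against 2.70 to 4.35 in the other Ang II libraries and 0.39 to 1.13 in sham. The list of lymphatic vessel and lymph node stroma, which shares Cr2 with it, stood at 2.10 to 2.98 in sham and 3.17 to 5.81 under Ang II. Both lists were highest in 28-day replicate 2. The lowest Ang II library was 14-day replicate 2 for the lymphatic list (3.17) and 28-day replicate 1 for the B cell list (2.70). Of 11 tested lymphatic members 4 were separated (7 of 11 without the nerve-rich libraries, against 14.3% of all genes). The libraries left out included the highest sham level (2.98, sham replicate 2), which moves the arms apart by itself. Flt4, the lymphatic growth factor receptor VEGFR3, had 14.4, 22.96 and 13.5 CPM against 24.5 to 39.5 CPM. Red cell and platelet genes were also higher in all 6 at list level, at 4.09 to 4.18 in sham and 5.05 to 6.55 under Ang II. Alas2, the erythroid enzyme of haem synthesis, had 2.77, 4.43 and 4.36 CPM against 6.38 to 17.0 CPM. The part of lymph node and blood RNA in the leukocyte values was not tested.

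Mast cell genes went the other way. Of 7 tested genes, of 9 written, 2 were lower in all 6 libraries and 0 higher, with a median log2 fold change of -1.47. Mcpt4, a chymase, had 85.4, 22.96 and 24.5 CPM in sham and 1.22 to 19.0 CPM, median 10.4, under Ang II. Tpsb2, a tryptase, had 66.4, 17.7 and 22.9 CPM against 0.72 to 17.5 CPM. In both genes sham replicate 1 was high and 14-day replicate 2 low. Without the 3 nerve-rich libraries 4 of 7 were lower, against 14.5% of all genes. These included the highest Ang II level of the list (4.15, 14-day replicate 1), so leaving them out moves the arms apart by itself. With library totals alone 1 of 7 was lower, against 2.225% of all genes. The arms of Tpsb2 were 1.01-fold apart, and DESeq2 called 0 genes of the list. At list level the arms overlapped, at 4.0 to 4.78 in sham and 1.36 to 4.15 under Ang II.

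The nuclear factor kappa B (NF-kB) pathway, which the title of the series names, is a set of dimeric transcription factors held in the cytoplasm by inhibitors until a signal frees them. Of 20 tested genes of the NF-kB family and its regulators, 7 were higher in all 6 and 0 lower, with a median log2 fold change of 0.57. Nfkb1, the p105 and p50 subunit, had 46.1, 47.3 and 54.4 CPM in sham and 65.1 to 118 CPM, median 82.3, a log2 fold change of 0.80 ± 0.20 (edgeR adjusted p = 0.116). Nfkb2, the p100 and p52 subunit, had 37.0, 24.5 and 32.3 CPM against 46.0 to 98.7 CPM. Nfkbia, the inhibitor IkB-alpha, had 61.3, 41.3 and 50.4 CPM against 67.2 to 96.7 CPM. Tnfaip3, the deubiquitinase A20, had 9.38, 6.44 and 6.23 CPM against 9.63 to 31.7 CPM. Rela, the p65 subunit, overlapped, at 90.3, 67.2 and 97.3 CPM against 84.4 to 123 CPM, with a log2 fold change of 0.20 ± 0.18. Relb overlapped too, at 18.4, 17.2 and 25.0 CPM against 21.3 to 53.1 CPM. Among 20 tested target genes, of 23 written, 9 were higher in all 6, with a median log2 fold change of 1.44. Ccl5, a chemokine for T cells and monocytes, had 6.39, 4.15 and 4.98 CPM against 9.52 to 115 CPM. Irf1 had 46.7, 35.1 and 35.7 CPM against 54.0 to 80.04 CPM.

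Other inflammatory lists followed, and they share members with the lists above. C1qa, C1qb and C1qc are also in the macrophage list, Rac2 in the pan-leukocyte list and Il1b in the neutrophil list. Of 13 inflammasome genes 11 were separated, all higher, with a median log2 fold change of 2.0. Pycard, the adaptor ASC, had 5.54, 3.43 and 4.27 CPM in sham and 9.19 to 40.3 CPM under Ang II, and Casp1, the protease that matures interleukin-1, had 14.2, 10.9 and 16.6 CPM against 22.2 to 45.8 CPM. Of 23 chemokines 9 were higher in all 6, among them Ccl21a, a ligand of Ccr7 made by lymphatic and lymph node stroma. Of 17 complement genes 8 were higher and 1 lower. Cfb, factor B of the alternative pathway, had 101, 72.1 and 120 CPM against 178 to 261 CPM, and its neighbour C2 had 21.5, 35.0 and 24.1 CPM against 47.6 to 87.7 CPM. Of 8 tested NADPH oxidase genes, of 10 written, 5 were higher in all 6. Cybb, the catalytic subunit in phagocytes, had 34.7, 10.2 and 20.3 CPM against 48.2 to 239 CPM.

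**Figure D4:**
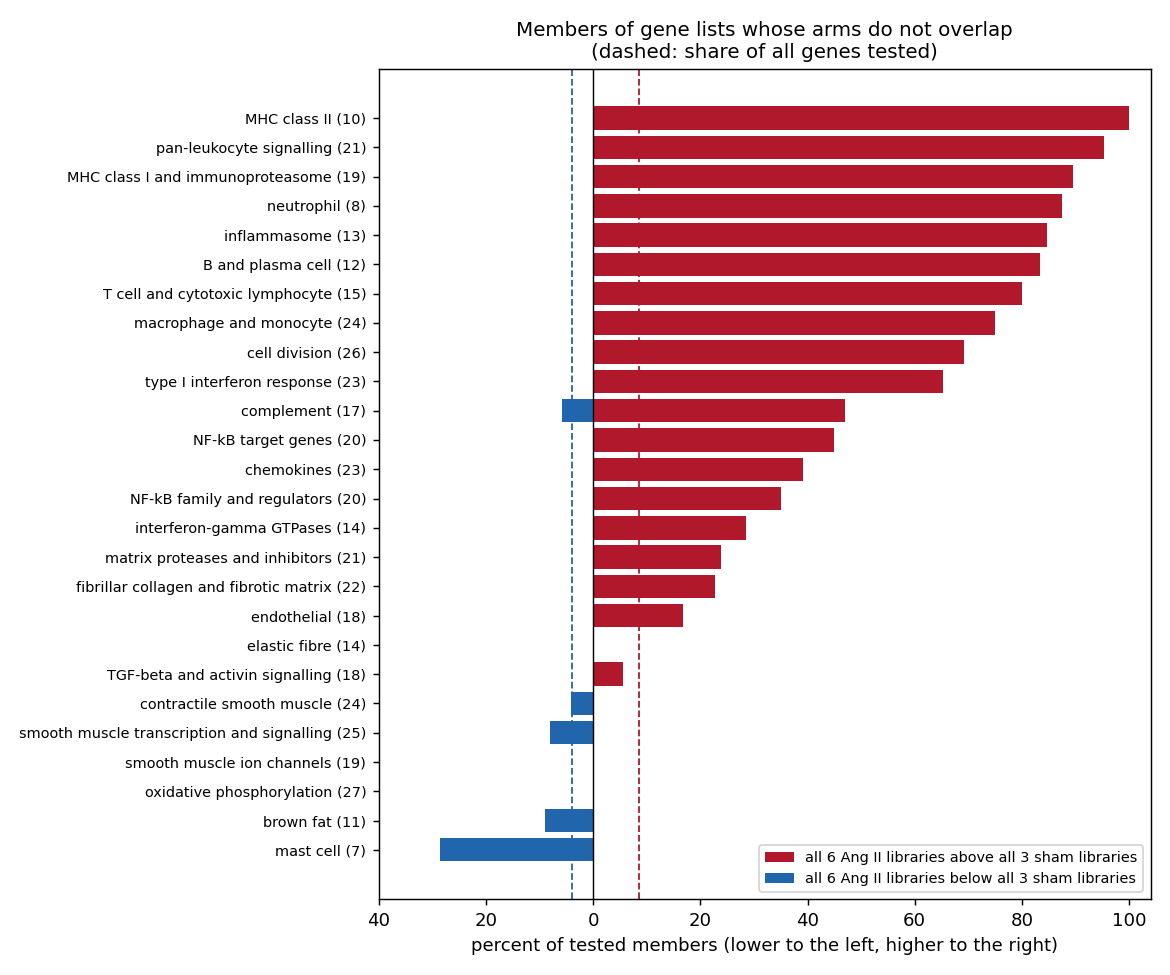
Percent of the tested members of 26 lists (number tested in parentheses) with all 6 Ang II libraries above all 3 sham libraries (red, to the right) or below them (blue, to the left). Dashed lines mark the shares over all genes tested, 8.57% and 3.97%. The MHC class II bar reaches 100%, and the bars of elastic fibre, smooth muscle ion channels and oxidative phosphorylation are at 0 on both sides.

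Genes of cell division were higher in 18 of 26 cases and lower in 0, with a median log2 fold change of 1.87. Mki67, a marker of cycling cells, had 3.62, 2.57 and 6.23 CPM in sham and 9.85 to 54.0 CPM, median 24.7, under Ang II, a log2 fold change of 2.68 ± 0.59 (edgeR adjusted p = 0.115). Top2a, the topoisomerase of mitosis, had 3.20, 2.57 and 4.18 CPM against 7.55 to 48.0 CPM, and Mcm3, a subunit of the replicative helicase, had 12.8, 8.08 and 8.90 CPM against 18.4 to 45.6 CPM. With the 2 libraries rich in skeletal muscle left out, 24 of the 26 were higher, against 10.96% of all genes. These included the lowest Ang II level of the list (2.13, 28-day replicate 1), so leaving them out moves the arms apart by itself. Without sham replicate 2, 18 were higher, against 12.7% of all genes.

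Matrix genes split. Of 22 fibrillar collagen and fibrotic matrix genes, 5 were higher in all 6 and 0 lower, with a median log2 fold change of 0.88. Col1a1, the main fibrillar collagen, had 1037, 495 and 1202 CPM in sham and 1300 to 6939 CPM, median 2291, under Ang II, with arms that nearly touched. Col8a1, a short-chain collagen that smooth muscle makes after injury, had 25.1, 17.5 and 19.5 CPM against 47.2 to 299 CPM, and Thbs1, thrombospondin-1, had 78.0, 40.5 and 48.9 CPM against 80.6 to 512 CPM. Of 21 matrix proteases and inhibitors 5 were higher in all 6. Mmp9, a gelatinase that cleaves elastin, had 6.07, 7.44 and 4.98 CPM against 8.83 to 44.8 CPM, median 21.1, a log2 fold change of 1.88 ± 0.52. Mmp2, the other gelatinase, had 116, 121 and 164 CPM against 190 to 999 CPM. Of 14 elastic fibre genes 0 were separated, and without the 3 nerve-rich libraries 2 were higher and 3 lower, against 14.3% and 14.5% of all genes. Eln, elastin itself, had 4222, 970 and 3111 CPM in sham and 658 to 4511 CPM, median 2114, under Ang II. Its log2 fold change was 0.46 at 14 days and -1.67 at 28 days against the same sham libraries, and pooling the times gave -0.24 ± 0.72. Tgfb1 was the only separated gene of 18 in transforming growth factor beta signalling (5.56%, under the 8.57% of all genes). It had 67.6, 35.5 and 53.2 CPM against 81.2 to 297 CPM. Without the nerve-rich libraries 3 genes were higher and 3 lower, 16.7% each, near the 14.3% and 14.5% of all genes.

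Contractile smooth muscle genes mostly had negative fold changes, with overlapping arms. Of 24 genes 1 was lower in all 6, a share near the background of 3.97%, although 23 of 24 had a negative log2 fold change and the median was -1.25. Acta2, smooth muscle alpha-actin, had 13376, 4653 and 10308 CPM in sham and 957 to 8322 CPM, median 2403, under Ang II (two-sided exact permutation p = 0.0952). Myh11, the smooth muscle myosin heavy chain, had 5692, 1810 and 3919 CPM against 304 to 2679 CPM, median 728 (exact permutation p = 0.0476). Sham replicate 2 was the lowest sham library for both, and it was also the sham library rich in nerve transcripts. Without it, 16 of 24 contractile genes were lower in all 6, against 11.1% of all genes, with a median log2 fold change of -1.57. Without all 3 nerve-rich libraries, 20 of 24 were lower, against 14.5% of all genes, with a median of -1.70. These 3 included both the lowest sham level (8.63, sham replicate 2) and the highest Ang II level (9.34, 14-day replicate 1) of the list. Leaving them out moves the arms apart by itself, so these counts are a description and not a test. Myocd, the coactivator of contractile genes, had 89.7, 38.3 and 80.7 CPM against 4.59 to 48.2 CPM. Itga8, an integrin of smooth muscle, was the 1 separated gene, at 1260, 371 and 996 CPM against 52.7 to 347 CPM, a log2 fold change of -2.47 ± 0.66 (edgeR adjusted p = 0.117). Ion channel genes of smooth muscle showed 0 of 19 separated with all libraries. Without the nerve-rich ones 13 of 19 were lower, against 14.5% of all genes. The libraries left out again held the lowest sham level (4.31) and the highest Ang II level (4.58) of the list. The part of the other tissue in these values was not tested.

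Among the genes lower in all 6, Myh10, non-muscle myosin IIB, had 275, 185 and 285 CPM in sham and 65.8 to 113 CPM, median 78.3, under Ang II. Its log2 fold change was -1.56 ± 0.22 (edgeR adjusted p = 0.0978). Gucy1b1, the haem subunit of the nitric oxide receptor guanylate cyclase, had 133, 110 and 88.2 CPM against 15.5 to 61.2 CPM, a log2 fold change of -1.61 ± 0.35. Ramp1, part of the receptor for the vasodilator CGRP, had 145, 66.9 and 89.5 CPM against 13.3 to 46.2 CPM. Fbxo30, a substrate receptor of a ubiquitin ligase, had 84.1, 44.0 and 90.8 CPM against 22.5 to 26.8 CPM, median 24.1. Its log2 fold change was -1.58 ± 0.20 (edgeR adjusted p = 0.0781), and all 6 Ang II libraries were close together. Napepld, which makes N-acylethanolamines such as anandamide, had 73.9, 38.2 and 65.3 CPM against 14.6 to 23.7 CPM, a log2 fold change of -1.72 ± 0.23 at the same adjusted p. Without sham replicate 2, Fbxo30 and Napepld passed the adjusted threshold of edgeR, and they were the 2 genes called lower there. Dsp, desmoplakin of desmosomes, had the widest gap among the lower genes with a mean of at least 10 CPM, 1.87-fold, at 97.7, 25.7 and 66.6 CPM against 2.73 to 13.8 CPM. Desmoplakin is also abundant in heart muscle, and sham replicate 1, where Dsp was highest, was the library with cardiac genes, whose part in the value was not tested. Lamc3, a laminin chain, had 44.6, 31.3 and 48.9 CPM against 2.45 to 19.3 CPM. Grb14, an adaptor that inhibits insulin receptor signalling, had 59.4, 51.3 and 71.4 CPM against 16.6 to 32.5 CPM. Osbpl3, an oxysterol-binding protein relative, had 72.5, 60.1 and 65.8 CPM against 17.5 to 41.9 CPM, and Hspa1b, an inducible HSP70, had 45.7, 56.1 and 70.3 CPM against 10.2 to 29.2 CPM. Hspa1b has a near-identical copy, Hspa1a, with which it may share reads.

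Mitochondrial and fat genes mostly had negative fold changes without separating. Of 27 oxidative phosphorylation genes 26 had a negative log2 fold change, with a median of -0.71, and 0 were separated. Without the 3 nerve-rich libraries 5 were lower, against 14.5% of all genes. In the citric acid cycle list all 18 were negative, with a median of -0.82, and 0 were separated. The median of the oxidative phosphorylation list was -1.24 at 14 days and -0.32 at 28 days. Brown fat genes moved with them: of 11 tested genes 1 was lower in all 6 (9.09%, against 3.97% of all genes). Their median was -1.08, with -1.80 at 14 days and -0.50 at 28 days. Without the nerve-rich libraries 3 were lower, against 14.5% of all genes. Cox7a1 and Cox8b are in both the brown fat and the oxidative phosphorylation list. Sdha and Sdhb are in both the oxidative phosphorylation and the citric acid cycle list. Ucp1, the uncoupling protein that marks brown fat, had 2359, 2895 and 6133 CPM in sham and 651 to 2988 CPM, median 1419, under Ang II. Prdm16, a regulator of brown fat identity, was the separated gene, at 65.5, 41.1 and 69.2 CPM against 8.21 to 38.4 CPM. The part of perivascular fat in the mitochondrial values was not tested. Among 18 endothelial genes 3 were higher in all 6 (16.7%, against 8.57% of all genes). Without the nerve-rich libraries the share was again 16.7%, near the 14.3% of all genes. Cldn5, a tight junction protein, was among the separated genes, at 39.6, 34.1 and 39.2 CPM against 50.6 to 117 CPM. S100b, a glial calcium-binding protein, was the 1 separated gene of the nerve list (5.56%, near the 3.97% of all genes). It was lower in all 6, at 34.0, 56.6 and 43.4 CPM against 17.9 to 27.2 CPM. Hmox1, haem oxygenase-1, was the 1 separated gene of 20 antioxidant genes (5.0%, under the 8.57% of all genes). It had 49.2, 14.5 and 31.8 CPM against 54.2 to 4187 CPM. Agtr1a had 4.69, 172 and 9.08 CPM in sham and 3.89 to 86.9 CPM, median 31.3, under Ang II, and its 172 CPM was in the nerve-rich sham replicate 2. Of 11 tested renin-angiotensin genes 0 were separated. Without the nerve-rich libraries 2 of 10 were higher and 2 lower, against 14.3% and 14.5% of all genes.

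Skeletal muscle genes had positive fold changes in 17 of 17 cases, but 2 of 17 were separated, and the level rested on the 28-day libraries. Acta1, skeletal alpha-actin, had 2.34, 1.5 and 0.98 CPM in sham and 0.43 to 4700 CPM, median 21.0, under Ang II. Tnni2, fast troponin I, was separated at 0.43, 0 and 0.27 CPM against 1.12 to 832 CPM, and Ryr1, the calcium release channel, at 0.32, 0.79 and 0.71 CPM against 1.44 to 346 CPM. In Acta1 and in both separated genes the highest libraries were 28-day replicates 1 and 2.

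The times were pooled without a test that they were alike. In a fit with 3 group means, edgeR called 0 genes between 28 and 14 days (0%), with a lowest adjusted p of 0.770 and 903 genes at an unadjusted p under 0.05. DESeq2 called 118 (0.8%). Taken alone against the same 3 sham libraries, the 14-day libraries were apart in 1861 genes on the higher side (12.6%) and 1986 on the lower side (13.5%). The 28-day libraries were apart in 1802 (12.2%) and 1394 (9.46%). Among the 1263 higher genes, the median log2 fold change over sham was 2.0 at 14 days and 1.48 at 28 days. Of these genes 88.5% were lower at 28 than at 14 days, with a median difference of -0.46, against 55.2% and -0.05 over all genes. The size depended on the libraries. Without 14-day replicate 2 the share was 68.0% and the median difference -0.16, without 14-day replicate 3 they were 67.5% and -0.28, and without 28-day replicate 1 they were 80.9% and -0.30. The difference was larger without 14-day replicate 1 (-0.71), without 28-day replicate 2 (-0.71) and without the 3 nerve-rich libraries (-1.05). Among the 585 lower genes the medians were -0.59 at 14 days and -0.50 at 28 days.

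Exact permutation of the 6 and 3 libraries (84 splits, two-sided, smallest possible p 0.0238) was applied to 14 genes fixed by name. Col1a1, Nfkb1, Ptprc, Cd68, Mmp9 and Mki67 were at the smallest p, which any separated gene reaches. For these genes the value restates the separation and adds nothing to it. Myh11 and Myocd were at 0.0476, Acta2 at 0.0952, Apoe and Ucp1 at 0.143, Rela at 0.310, Eln at 0.667 and Agtr1a at 1.00.

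The edge of the rule was thin. On the higher side Apobec1 was just inside, with a highest sham and lowest Ang II library both at 40.3 CPM, as were Eps8 at 16.3 CPM and Crnkl1 at 20.4 CPM. Just outside were Myh4, Mybpc1 and Myot, skeletal muscle genes with 0 CPM in all sham libraries and in at least 1 Ang II library. On the lower side Ano10, Sort1 and Spag7 were just inside, and Icmt, Adam33 and Ptges3 just outside. With the genes in 4 equal groups by mean CPM, 10.7% of the lowest group and 6.76% of the highest were higher in all 6, and 3.01% of the lowest and 4.15% of the highest were lower.

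A second motif searched was that of PU.1, a factor of myeloid and B cells. The letters GAGGAAGT, on both strands, were in 8.29% of windows of the higher genes, 1.93% of the lower genes and 3.05% of all tested genes. The 2 stretches of 150 bases shown for this motif are from Ifi47 (chr11:49076437-49076586, plus strand) and Bcl2a1d (chr9:88731851-88732000, minus strand), GRCm38.p6, with the match in capitals.
Ifi47: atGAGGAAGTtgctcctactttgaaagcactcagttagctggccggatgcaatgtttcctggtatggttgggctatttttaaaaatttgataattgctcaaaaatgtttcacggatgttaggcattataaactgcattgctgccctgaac
Bcl2a1d: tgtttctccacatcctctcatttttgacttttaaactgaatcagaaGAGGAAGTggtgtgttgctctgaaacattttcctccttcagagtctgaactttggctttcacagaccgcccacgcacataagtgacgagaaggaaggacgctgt
Bcl2a1d, a BCL2 relative that protects leukocytes, had 1.07, 0.64 and 1.60 CPM in sham and 4.06 to 11.3 CPM, median 6.82, under Ang II, and it shares sequence with its neighbours Bcl2a1a and Bcl2a1b. The cell cycle homology region, searched as TTTGAA, was in 19.5% of windows of the higher genes and 12.3% of all, and in 59.1% of the 22 windows of the cell division list. The NF-kB motif was in 12.8% of windows of the higher genes and 10.6% of all, and in 9 of 19 windows of the class I and immunoproteasome list, 5 of 18 of the NF-kB target list, 5 of 22 of the contractile list and 1 of 23 of the pan-leukocyte list. The CArG box of smooth muscle promoters was in 1.33% of all windows and in 3 of the 22 windows of the contractile list. Each motif was searched on its own, and matches of different motifs may share bases.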

How the data were processed

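The unit of the files is the expected count per gene, 1 file per library, deposited by the authors. The tools named in the submitters' processing notes are RSEM 1.3.1, the aligners Bowtie2 2.4.5 and HISAT2 2.2.1, and the mouse build GRCm38.p6. Per the labels, libraries were made with an MGIEasy mRNA kit from total RNA extracted with TRIzol. Strandedness is not given in the sources used here, so sense and antisense reads cannot be told apart.

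Counts were rounded to whole numbers, which changed 9.77% to 11.0% of the values per library. Files were joined by Entrez Gene ID: 18830 genes, 18775 matched to a symbol and 55 not, 658 at 0 in all libraries after rounding. filterByExpr by arm left 14741 genes. edgeR 4.0.16 (R 4.3.3) fitted 1 coefficient for the arm (TMM, glmQLFit with robust dispersion), with Benjamini-Hochberg adjustment over all genes. The biological coefficient of variation was 51.6%. SE is the log2 fold change over the square root of F. CPM carry the TMM factors, and 3 counts correspond to 0.204 to 0.328 CPM. List levels are means of log2 CPM with a prior count of 2. Alternatives used DESeq2 1.42.0, limma 3.58.1, other scaling and filters, a replicate block and left-out libraries. The pipeline was tested on simulated data.

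The members and the 51 gene lists (828 genes, 824 matched) were chosen with earlier results of these data known. Genes were named by a rule: the 12 largest called changes each way (none), the 12 widest gaps each way with a mean of at least 10 CPM, up to 4 separated members per list with the smallest p, 14 fixed genes, and the 3 genes on either side of the rule's edge. Not all of these are described. Plac8, Ifi205, Tmem176b, Tmem176a, Rnf213, Uba7, Slfn2, Slfn8, Phf11b, Klrc1, Irf7, H2-Eb2, H2-DMa, Tap2, Cd74, Ciita, B2m, H2-K1, Bcl2a1d, Nfkbia, Relb, Siglec1, Acta1 and the other members of the gene runs were chosen after their values were seen. Promoters are RefSeq windows of the GRCm38.p6 table, 14909 windows of 11665 tested genes.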

Additional observations from a re-analysis of the deposited data

Results flagged for a closer look

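Of 119 genes and list levels checked for a library far from the others among the 6 Ang II libraries on the log2 scale, 10 stood out by Dixon's ratio of gap to range above its 95% critical value, and chance alone marks about 1 in 20. Of these, 8 had 14-day replicate 2 as the far library. It was the high one for Cd68 (ratio 0.742, 1479 CPM), Casp1 (0.668, 45.8 CPM), Col8a1 (0.627, 299 CPM), Ctsc (0.682, 755 CPM), Sdf2l1 (0.801, 53.6 CPM) and the macrophage and monocyte list (0.688, mean log2 CPM 9.10). It was the low one for the mast cell genes Mcpt4 (0.643, 1.22 CPM) and Tpsb2 (0.704, 0.72 CPM). In 28-day replicate 1, Psmb10 (0.829, 41.6 CPM) and Klrc1 (0.684, 0.88 CPM) were far below the other Ang II libraries. That library was 1 of the 2 rich in skeletal muscle transcripts.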

How the results depend on the processing

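Counts of called genes depended most on the test: edgeR called 0 in each direction, limma-voom 0, and DESeq2 1170 higher, 460 lower and 118 between the times. With 1 library left out, edgeR called 0 to 7 higher and 0 to 2 lower genes. The 7 came without 28-day replicate 1 (Ifi47, Klrc1, Oas3, Plac8, Psmb8, Trim30a and Zbp1) and the 2 without sham replicate 2. Without the 2 muscle-rich libraries edgeR called 12 higher genes, with a lowest adjusted p of 0.00353. Separated genes ran from 1330 to 2073 higher and 531 to 1654 lower with 1 library left out, and fewer libraries make separation easier. Without sham replicate 1 there were 2073 and 1078, and without sham replicate 2 there were 1904 and 1654. Without the 3 nerve-rich libraries there were 2064 and 2098, without the 2 muscle-rich ones 978 lower, with library totals 328 lower, and with a 2-fold gap 162 and 3. Library totals moved the median log2 fold change of all genes from -0.07 to 0.02. Of 1020 list medians under the alternatives, 12 in 6 lists had the other sign, among them elastic fibre at -0.17 without sham replicate 2 and nerve at 3.56. With 1 library left out, the log2 fold change of Eln ran from -0.65 to 0.19 and that of Agtr1a from -1.35 to 2.36, the highest without sham replicates 1 and 2 in turn. Eln was 0.14 without the muscle-rich libraries and Agtr1a 1.41 without the nerve-rich ones. With the replicate number as a block (replicate block), edgeR called 0 genes, with a lowest adjusted p of 0.0592 and 2741 at an unadjusted p under 0.05, and Agtr1a was 0.44. Deviations of same-numbered libraries correlated from -0.553 to 0.646, so the numbers do not pair the libraries. A planned repeat on FPKM values was not run. At these depths, genes under about 0.3 CPM rest on 3 counts or fewer. The cause of these differences was not tested.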

Other observations

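Further immune lists held separated genes on the higher side, but they share members with lists above and are not separate evidence. Fcgr1, Fcer1g, Tyrobp, Trem2, Cd14, Ly86 and Ctss, for example, are also in the macrophage and monocyte list. Of 19 Fc and paired immune receptors 12 were higher in all 6 Ang II libraries and 0 lower, with a median log2 fold change of 2.47, against -0.07 over all genes tested. Fcgr1, the high-affinity IgG receptor, had 7.25, 4.08 and 7.30 CPM in sham and 14.0 to 140 CPM, median 23.5, under Ang II. Of 18 genes of the Toll-like receptor pathway 10 were higher in all 6, with a median of 1.65. Without the muscle-rich libraries 14 were higher, against 10.96% of all genes. These included the lowest Ang II level of the list (4.08, 28-day replicate 1), so leaving them out moves the arms apart by itself. Unc93b1, the chaperone of the endosomal Toll-like receptors, had 70.9, 40.6 and 61.0 CPM against 121 to 512 CPM, median 188. Of 10 dendritic cell genes 4 were higher in all 6. Clec9a, a receptor for dead cells on cross-presenting dendritic cells, had 2.77, 3.50 and 2.58 CPM against 4.82 to 13.6 CPM. Of 20 lysosomal genes all had a positive log2 fold change, but 3 were separated, all higher (9 without the 2 muscle-rich libraries, against 10.96% of all genes). The libraries left out again included the lowest Ang II level of the list (8.37, 28-day replicate 2). Ctsc, the protease that activates granule serine proteases, had 91.0, 71.0 and 98.8 CPM against 147 to 755 CPM.

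Some other lists held at most 2 separated genes each. Over all genes tested, 8.57% were higher in all 6. The cartilage and bone list (2 of 10) and the immediate early list (2 of 17) lay above this share, and the unfolded protein response list (1 of 15) below it. Counts of 1 or 2 genes are too small to tell these lists from all genes, and the difference was not tested. Of 15 circadian clock genes 0 were separated, all 15 had a negative log2 fold change, and the median was -0.73 with all libraries and 0.06 without sham replicate 1. The hour of day at which aortas were taken is not given in the labels used here. Of 15 genes of the unfolded protein response 1 was higher in all 6. This was Sdf2l1, a chaperone partner of the endoplasmic reticulum, at 5.75, 10.3 and 8.54 CPM against 15.1 to 53.6 CPM. Of 17 tested immediate early genes 2 were higher in all 6, among them Egr2, at 1.92, 3.08 and 3.56 CPM against 4.76 to 10.4 CPM. Of 15 adipocyte genes 0 were separated, with a median log2 fold change of -0.41. Of 10 tested cartilage and bone genes, of 14 written, 2 were higher in all 6. Runx2, the regulator of bone formation, had 2.88, 1.07 and 1.51 CPM against 3.06 to 17.6 CPM, with nearly touching arms.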
